A study of Homo sapiens with 5 samples.

Results

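The genes described here are 38 targets of the transcription factor NRF2 and antioxidant enzymes, picked by symbol from the 26475 rows of a gene table of MDA-MB-231, a human breast cancer cell line that lacks hormone receptors. All 38 had a row, and 36 passed a filter of at least 1 CPM (counts scaled to the size of the library) in at least 1 library, as did 13940 rows in all. RNA sequencing gave 5 libraries, 1 for each condition. Reoxygenated cells had spent 10 days at 1% O2 and then 10 days at 20% O2. No library kept at 20% O2 throughout matches their total time in culture. The other libraries came from cells kept at 1% O2 for 10 days, at 20% O2 for 10 days, at 1% O2 for 1 day and at 20% O2 for 1 day. The study asks how acute and chronic hypoxia differ and what remains once oxygen is restored. No genotype, drug or transgene is named in the labels, and all libraries are of the same line.

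NRF2, encoded by NFE2L2, is held in the cytoplasm by KEAP1, which directs it to degradation. Oxidants and electrophiles modify KEAP1, and NRF2 then accumulates, pairs with a small MAF protein and binds antioxidant response elements, where the repressor BACH1 can take its place. Its targets make and recycle glutathione and thioredoxin, supply NADPH, reduce quinones and conjugate or export electrophiles. The KEAP1 and NRF2 pair is regulated largely at the protein level, which RNA sequencing does not measure.

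The deposited estimated counts, each rounded to a whole number, summed to 7719797 in reoxygenated cells, and to between 9781980 and 12544953 in the other 4 libraries. Levels are given as CPM scaled with TMM factors, which correct for library composition. Differences are on the log2 scale between 2 libraries, each with the exact 95% interval of its count ratio, and a gene counts as higher or lower by 2-fold from a log2 difference of 1. With 1 library per condition these differences have no test, compare libraries and not conditions, and their intervals cover counting error only. In bulk RNA, a lower level in each cell and fewer cells that express the gene cannot be told apart. The 8 markers expressed by this line all had at least 11.0 CPM in each library, whereas of 8 markers listed as low in the line ESR1 and PGR had at most 4 counts. Others of that list were expressed, KRT18 at 342 to 478 CPM, ERBB2 at 42.5 to 52.9 CPM and EPCAM at 15.1 CPM or more. Of 16 markers of other cell types, 4 to 7 were at 0 counts in a library and CD68, a lysosomal protein, made up most of the sum of 161 to 221 CPM. CD3E, ADIPOQ and HBB were at 0 in every library. Of the 8 that passed the filter, 5 were higher by 2-fold at 1% than at 20% O2 on day 10 (median log2 difference 1.31), such as PDGFRB with 17.4 CPM at 1% O2 and 4.73 CPM at 20% O2; their part in the differences below was not tested. CA9, a hypoxia-inducible factor target, had 68.7 and 51.9 CPM at 1% O2 on days 10 and 1, against 3.65 to 8.48 CPM in the other libraries.

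The 1% O2 library of day 10 stood apart. A list of 28 mitosis and replication genes summed to 3499 CPM there and to between 7211 and 7524 CPM in the other 4, and ribosomal RNA took 2.17% of its counts, against 1.51% to 1.78%. Their part in the differences below was not tested, and every comparison that uses this library shares it.

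After 10 days at 1% O2, the listed antioxidant genes were lower on balance, led by NQO1, GCLM and MGST1, while the aldo-keto reductases AKR1C1 and AKR1C3 were higher. Against 20% O2 at day 10, 5 of the 36 measured members were lower by at least 2-fold, against 7.06% of all genes. Only 2 were higher, against 14.4% of all genes. The median log2 difference of the members was −0.36, against 0.02 over all genes. Below 0 were 24 members (66.7%, against 49.2% of all genes). The counting interval lay below 0 for 22 members, above 0 for 8 and held 0 for 6. No share over all genes was set beside these interval counts, so they describe the members alone. After 1 day, 0 members were higher and 0 were lower by 2-fold, against 2.12% and 0.839% of all genes, and the median was −0.14, against 0.00 over all genes. Of the 36 members, 21 were below 0 on both days (58.3%, against 30.6% of all genes), and 29 had a larger difference on day 10 than on day 1 (80.6%, against 79.6% of all genes). The summed level of the 38 genes was 4449 CPM in reoxygenated cells, 2968 CPM at 1% O2 and 4113 CPM at 20% O2 on day 10, 4080 CPM at 1% O2 and 4521 CPM at 20% O2 on day 1. The 1% O2 library of day 10 held the lowest level of 22 members and the highest of 9, again with no share over all genes beside them.

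**Figure D1:**
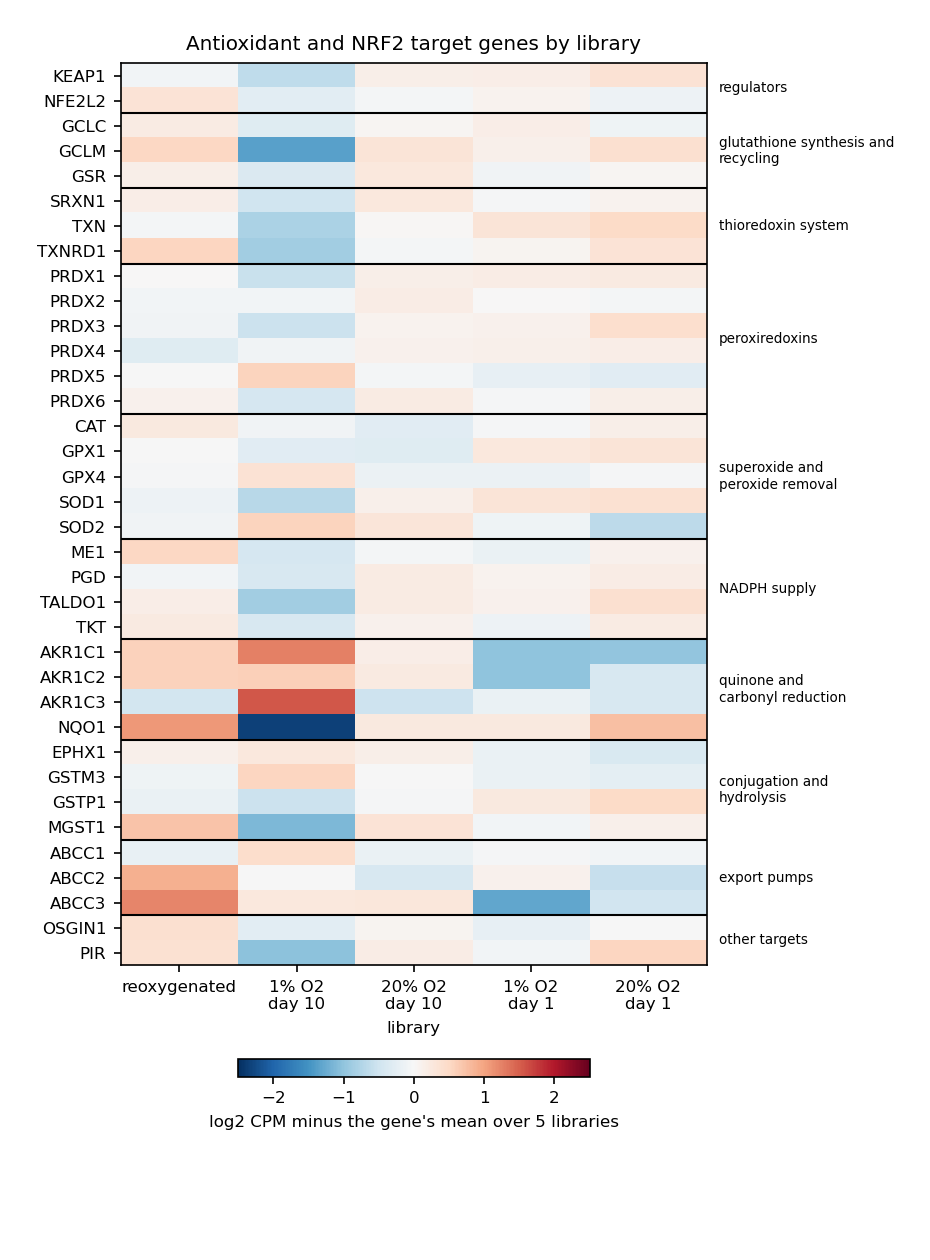
Level of each measured member in the 5 libraries, as log2 CPM minus the mean of that gene over the libraries (colour, log2 units), with members in rows grouped by role and 1 library per column. NQO1 is 2.33 below its mean in the 1% O2 library of day 10, and AKR1C3 stands out in the other direction in the same column.

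NQO1 reduces quinones with NADH or NADPH and is the member that differed most (chromosome 16, 69709401 to 69726560, GRCh38.p14). It had 250 CPM in reoxygenated cells, 23.4 CPM at 1% O2 and 141 CPM at 20% O2 on day 10, 140 CPM at 1% O2 and 199 CPM at 20% O2 on day 1. The 1% O2 library of day 10 was thus far below the other 4, and the reoxygenated one above all of them. NQO1 was 5.98-fold lower at 1% than at 20% O2 on day 10, a log2 difference of −2.58 (−2.79 to −2.40), and differed by −0.51 (−0.61 to −0.41) on day 1. Between both 20% O2 libraries, whose labels differ in time alone, the day 10 library was also lower, by −0.50 (−0.59 to −0.40). In reoxygenated cells NQO1 was 10.6-fold higher than at 1% O2 on day 10 (log2 difference 3.41, 3.23 to 3.62) and 1.78-fold higher than at 20% O2 on day 10 (0.83, 0.74 to 0.92).

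NQO1 was also the only member to pass the test over both days. Both libraries of each oxygen level were compared in edgeR's quasi-likelihood test with the day as covariate, over 13011 genes, of which 0.899% rose and 0.0999% fell at 1% O2. Of 36 members tested, 0 rose and 1 fell; at an unadjusted p under 0.05 they were 1 and 4, against 7.36% and 4.88% of all genes. NQO1 fell by 1.51 on the log2 scale (SE 0.34, edgeR adjusted p = 0.0195) and was lower at 1% O2 on both days. The call was lost with DESeq2 (adjusted p = 0.0774), with unadjusted library totals (edgeR, adjusted p = 0.229) and without the day term (edgeR, adjusted p = 0.772), and held with limma-voom (adjusted p = 0.00355). It was also lost in edgeR fits, of 3 libraries and no day term, that left out 20% O2 at day 1, 20% O2 at day 10 or 1% O2 at day 10 (adjusted p of 1.00 in each). Without 1% O2 at day 1 the edgeR adjusted p was 0.000305, but that fit sets the single 1% O2 library of day 10 against both 20% O2 libraries. Its spread comes from those 2 alone, the lone library is assumed to vary like them, and it called 15.7% of all genes as higher and 17% as lower. The test had 1 residual degree of freedom, which is the disagreement between the oxygen differences of both days. The next lowest edgeR adjusted p of a member was 0.150, for GCLM.

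The aldo-keto reductases AKR1C1 and AKR1C3 lay in the other direction. AKR1C1, AKR1C2 and AKR1C3 reduce steroids and reactive carbonyls, and AKR1C3 also forms androgens and prostaglandins. AKR1C3 had 4.28 CPM in reoxygenated cells, 17.8 CPM at 1% O2 and 4.08 CPM at 20% O2 on day 10, 5.28 CPM at 1% O2 and 4.43 CPM at 20% O2 on day 1. Only the 1% O2 library of day 10 was high, by 2.08 (1.67 to 2.61) over 20% O2 of the same day, against 0.24 on day 1. AKR1C1 had 9.18 CPM in reoxygenated cells, 14.9 CPM at 1% O2 and 6.93 CPM at 20% O2 on day 10, 2.96 CPM at 1% O2 and 2.99 CPM at 20% O2 on day 1. Its day 10 difference was 1.09 (0.72 to 1.51), and its level was also higher on day 10 than on day 1 at 20% O2, by 1.16 (0.61 to 1.86). AKR1C2 had 4 to 16 counts in a library. The copies share sequence: 48.1% of the 50-base words of AKR1C2 transcripts, 27.0% of those of AKR1C1 and 9.55% of those of AKR1C3 occur in another gene, so the authors' estimation could move reads between them. Summed over the 3 rows, the level was 15.0 CPM in reoxygenated cells, 34.3 CPM at 1% O2 and 12.2 CPM at 20% O2 on day 10, 8.62 CPM at 1% O2 and 8.09 CPM at 20% O2 on day 1. The sum was thus highest at 1% O2 on day 10, with an oxygen difference of 1.48 (1.22 to 1.78), against 0.09 (−0.35 to 0.53) on day 1. AKR1B10, a related reductase, did not pass the filter, with 2 counts in reoxygenated cells, 0 and 6 at 1% and 20% O2 on day 10 and 1 in each library of day 1.

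**Figure D2:**
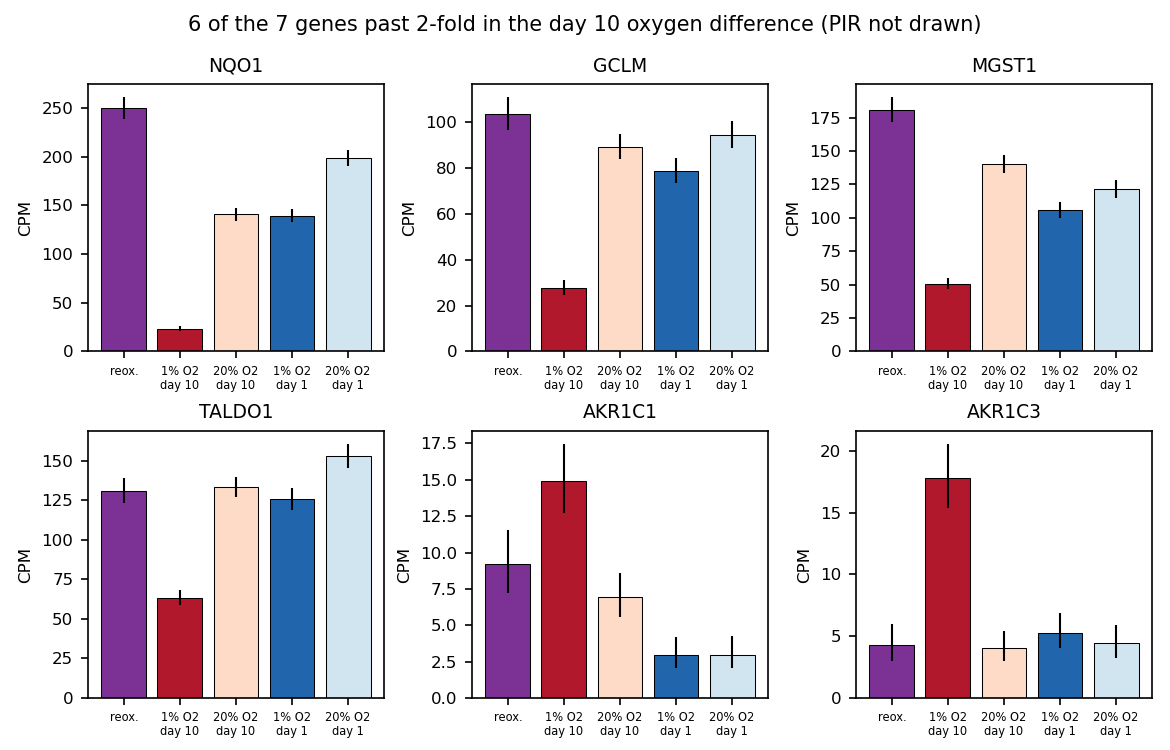
Level in CPM (linear axis from 0) of 6 of the 7 members past 2-fold between 1% and 20% O2 on day 10, 1 bar per library with its 95% Poisson interval, which covers counting error only; PIR, with 15 to 48 counts, is not drawn. NQO1, GCLM, MGST1 and TALDO1 are lowest, and AKR1C1 and AKR1C3 highest, in the 1% O2 library of day 10.

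In glutathione synthesis and recycling the regulatory subunit stood apart from the catalytic one. GCLM encodes the modifier subunit of glutamate-cysteine ligase, the rate-limiting enzyme of glutathione synthesis (chromosome 1, 93885199 to 93909430). It had 104 CPM in reoxygenated cells, 27.8 CPM at 1% O2 and 89.3 CPM at 20% O2 on day 10, 78.7 CPM at 1% O2 and 94.5 CPM at 20% O2 on day 1. Only the 1% O2 library of day 10 was low, by −1.68 (−1.88 to −1.50) against 20% O2, or 3.20-fold; on day 1 the difference was −0.26 (−0.40 to −0.13). GCLC, the catalytic subunit, had 17.1 to 24.6 CPM and differed by −0.35 (−0.63 to −0.07) on day 10 and by 0.27 (0.00 to 0.54) on day 1. GSR, which reduces oxidized glutathione, had 45.8 to 70.5 CPM and differed by −0.62 on day 10.

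The promoter of GCLM and that of TXNRD1, the thioredoxin reductase gene described next, are printed as examples that hold a match to the antioxidant response core TGACNNNGC. Both are RefSeq sequences of GRCh38.p14, the 250 bases before the annotated start, with the match in capitals. For GCLM (minus strand, chr1:93909431-93909680) the match is on the opposite strand of the window, 34 to 26 bases before the start. For TXNRD1 (plus strand, chr12:104215529-104215778) the marked match is 99 to 91 bases before the start. A second TXNRD1 match, on the opposite strand, begins 8 bases before the start and ends at base 1, past the printed sequence, so it is not marked.
GCLM: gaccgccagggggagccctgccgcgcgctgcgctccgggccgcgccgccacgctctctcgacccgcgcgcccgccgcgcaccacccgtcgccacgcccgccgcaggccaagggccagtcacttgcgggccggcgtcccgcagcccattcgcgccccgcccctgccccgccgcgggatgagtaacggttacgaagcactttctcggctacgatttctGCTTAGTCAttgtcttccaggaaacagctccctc
TXNRD1: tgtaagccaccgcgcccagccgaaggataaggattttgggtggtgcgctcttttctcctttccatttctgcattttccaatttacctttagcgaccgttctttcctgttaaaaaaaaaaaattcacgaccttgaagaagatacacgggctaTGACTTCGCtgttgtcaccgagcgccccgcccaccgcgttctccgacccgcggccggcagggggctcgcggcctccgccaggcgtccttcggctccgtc
Windows ran from 250 bases before to 50 after the start and were searched on both strands. In these, TGACNNNGC occurred in 7 of the 31 members with a promoter sequence (22.6%). That is against 13.3% of 35116 promoters and 15.2% of the 10361 promoters of genes that passed the filter. The 31 and the 7 both include GPX2, which did not pass the filter. The members with a match were GCLM, TXNRD1, PGD, ME1, GPX2, GSTP1 and PIR. Of the 5 members lower by 2-fold on day 10, GCLM and PIR thus held it and NQO1, MGST1 and TALDO1 did not. The hypoxia response core, ACGTG or GCGTG, occurred in 17 of the 31 (54.8%), a share above that of all promoters (48.4%) and below that of the promoters of genes that passed the filter (62.6%). A match is a stretch of letters and was not tested for binding.

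The 3 members of the thioredoxin system were each lower at 1% O2 on day 10, though none reached 2-fold. Of 12 other genes of that system that passed the filter, 6 were below 0 and 6 above, among them TXNIP at 1.95. TXNRD1, the selenium-containing reductase that regenerates thioredoxin, had 841 CPM in reoxygenated cells, 319 CPM at 1% O2 and 561 CPM at 20% O2 on day 10, 609 CPM at 1% O2 and 736 CPM at 20% O2 on day 1. It was lowest at 1% O2 on day 10, by −0.81 (−0.87 to −0.75) against 20% O2, and the reoxygenated library was the highest. TXN, thioredoxin itself, differed by −0.82 on day 10 and was lower by −1.11 (−1.20 to −1.03) on day 10 than on day 1 at 1% O2. SRXN1, sulfiredoxin, which repairs over-oxidized peroxiredoxins, differed by −0.76 on day 10, but 84.7% of its transcript words also occur in the overlapping gene AL121758.1, so its counts are uncertain.

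The 4 members grouped under NADPH supply, which include enzymes of the pentose phosphate pathway that do not form NADPH themselves (TALDO1 and TKT), were below 0 on both days. Of 10 other genes in that group, 6 were below 0 on day 10 and 4 above. TALDO1, the transaldolase of the pentose phosphate pathway, had 131 CPM in reoxygenated cells, 63.1 CPM at 1% O2 and 133 CPM at 20% O2 on day 10, 126 CPM at 1% O2 and 153 CPM at 20% O2 on day 1. It was lower at 1% O2 on day 10 by −1.08 (−1.21 to −0.95), or by −0.95 with library totals, which is under 2-fold. TKT, the transketolase of the same pathway, differed by −0.51, phosphogluconate dehydrogenase, PGD, by −0.61 and the cytosolic malic enzyme, ME1, by −0.37. On day 1 the 4 differences lay between −0.33 and −0.10.

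Among the conjugating enzymes MGST1 was low and GSTM3 was not. MGST1, a membrane-bound glutathione transferase, had 181 CPM in reoxygenated cells, 50.6 CPM at 1% O2 and 140 CPM at 20% O2 on day 10, 106 CPM at 1% O2 and 121 CPM at 20% O2 on day 1. Its oxygen difference was −1.47 (−1.62 to −1.33) on day 10 and −0.20 (−0.32 to −0.08) on day 1. The cytosolic transferase GSTP1 differed by −0.49 on day 10 and GSTM3 by 0.56, and EPHX1, an epoxide hydrolase, by 0.11. PIR, pirin, an iron-binding nuclear protein, had 33 counts in reoxygenated cells, 15 and 44 at 1% and 20% O2 on day 10, 32 and 48 at 1% and 20% O2 on day 1. Its day 10 difference of −1.21 had a wide interval (−2.27 to −0.45). The deposited counts of PIR were not whole in 3 libraries and are given rounded. OSGIN1, a growth inhibitor induced by oxidative stress, differed by −0.33.

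The export pumps, which move glutathione conjugates out of the cell, showed no common direction. ABCC1 was higher at 1% O2 on day 10 by 0.61 (0.49 to 0.73) and differed by 0.02 on day 1. ABCC2 had 47 counts in reoxygenated cells, 32 and 28 at 1% and 20% O2 on day 10, 36 and 21 at 1% and 20% O2 on day 1. Its level was 5.91 CPM in reoxygenated cells and between 2.02 and 3.34 CPM in the other 4. ABCC3 had 88 counts in reoxygenated cells, 58 and 69 at 1% and 20% O2 on day 10, 19 and 34 at 1% and 20% O2 on day 1. Its oxygen difference on day 10 was −0.02, a sign that turned with library totals, with DESeq2 factors and with a filter of 5 CPM.

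**Figure D3:**
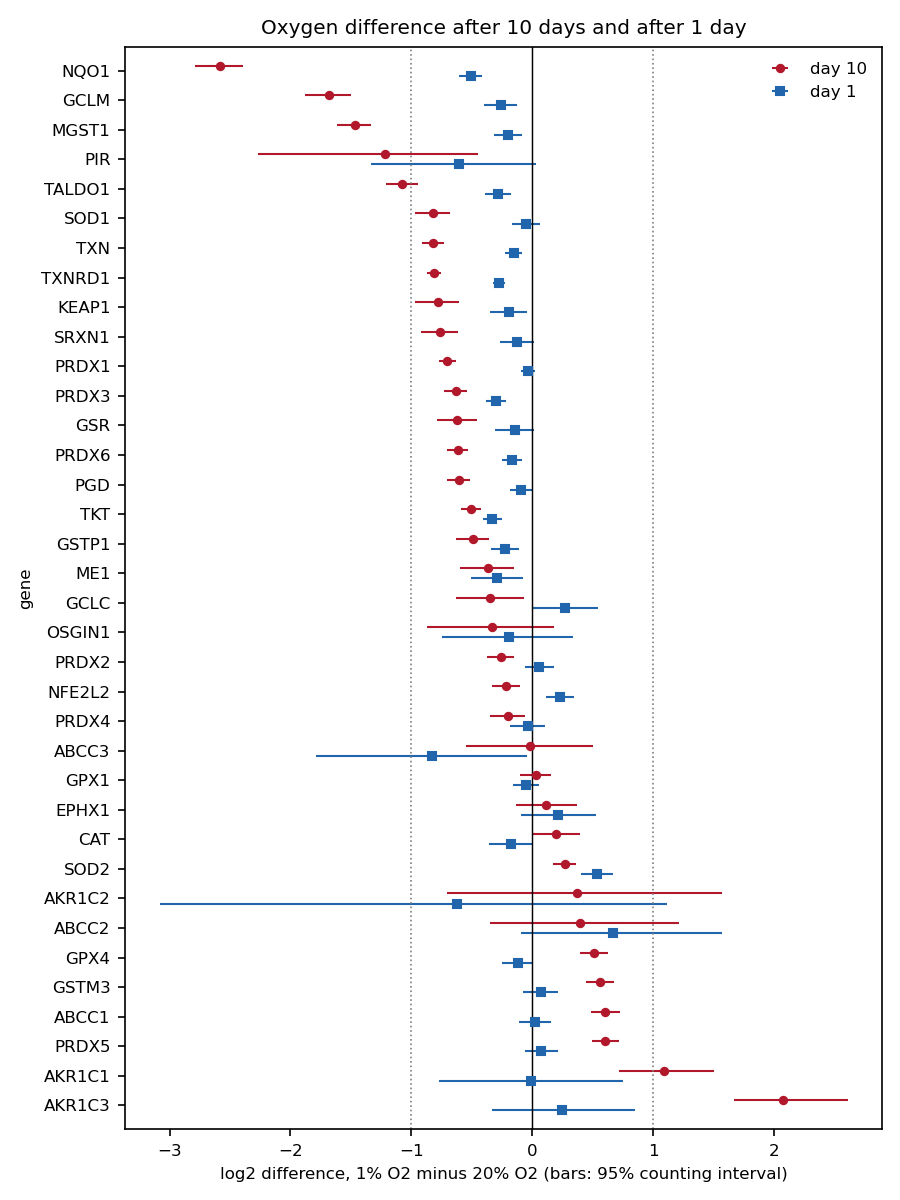
Log2 difference between 1% and 20% O2 on day 10 and on day 1 for each measured member, with 95% counting intervals. NQO1 (−2.58 and −0.51) and AKR1C3 (2.08 and 0.24) are the ends of the day 10 range.

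Of the 6 peroxiredoxins, which reduce hydrogen peroxide with thioredoxin or glutathione, 5 were below 0 at 1% O2 on day 10 and PRDX5 was above. PRDX1, a cytosolic form, had 369 CPM in reoxygenated cells, 251 CPM at 1% O2 and 408 CPM at 20% O2 on day 10, 418 CPM at 1% O2 and 429 CPM at 20% O2 on day 1. Its day 10 difference was −0.70, that of the mitochondrial PRDX3 −0.63 and that of PRDX6 −0.61. PRDX2 differed by −0.26 and PRDX4, of the endoplasmic reticulum, by −0.20. PRDX5, found in mitochondria and peroxisomes, had 101 CPM in reoxygenated cells, 150 CPM at 1% O2 and 98.9 CPM at 20% O2 on day 10, 88.8 CPM at 1% O2 and 84.3 CPM at 20% O2 on day 1. It was the one peroxiredoxin with its highest level at 1% O2 on day 10, by 0.61 (0.50 to 0.72). As levels per kilobase of the longest coding transcript, PRDX5 had 169 CPM per kb and PRDX1 203 CPM per kb at 1% O2 on day 10, against 111 and 330 CPM per kb at 20% O2.

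Superoxide dismutases, catalase and glutathione peroxidases were mixed. SOD1, the cytosolic copper and zinc enzyme, had 85.9 CPM in reoxygenated cells, 57.3 CPM at 1% O2 and 101 CPM at 20% O2 on day 10, 117 CPM at 1% O2 and 121 CPM at 20% O2 on day 1. The mitochondrial manganese enzyme SOD2 had 109 CPM in reoxygenated cells, 172 CPM at 1% O2 and 143 CPM at 20% O2 on day 10, 107 CPM at 1% O2 and 74.2 CPM at 20% O2 on day 1. SOD1 was thus lowest and SOD2 highest in the same library, with day 10 differences of −0.82 (−0.97 to −0.68) and 0.27 (0.17 to 0.37). SOD2 was also higher on day 10 than on day 1 at 20% O2, by 0.94 (0.82 to 1.07), and at 1% than at 20% O2 on day 1, by 0.53 (0.40 to 0.67). GPX4, which reduces lipid hydroperoxides, had 97.9 CPM in reoxygenated cells, 129 CPM at 1% O2 and 90.5 CPM at 20% O2 on day 10, 90.3 CPM at 1% O2 and 98.1 CPM at 20% O2 on day 1. It was highest at 1% O2 on day 10, by 0.51 (0.39 to 0.63), and differed by −0.12 on day 1. CAT, catalase, had 53.8 CPM in reoxygenated cells, 42.4 CPM at 1% O2 and 36.9 CPM at 20% O2 on day 10, 44.6 CPM at 1% O2 and 50.3 CPM at 20% O2 on day 1, a day 10 difference of 0.20 (0.01 to 0.39). GPX1 differed by 0.03 on day 10 and was lower on day 10 than on day 1 at 20% O2, by −0.64. GPX2, a peroxidase of the gut lining, had 0 counts in all 5 libraries, which allows up to 0.245 to 0.377 CPM.

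Neither regulator differed by 2-fold in any comparison. NFE2L2, which encodes NRF2, had 155 CPM in reoxygenated cells, 101 CPM at 1% O2 and 117 CPM at 20% O2 on day 10, 129 CPM at 1% O2 and 110 CPM at 20% O2 on day 1. It was below 20% O2 on day 10, by −0.22 (−0.34 to −0.11), and above it on day 1, by 0.23 (0.12 to 0.34). KEAP1 had 52.2 CPM in reoxygenated cells, 35.1 CPM at 1% O2 and 60.4 CPM at 20% O2 on day 10, 61.3 CPM at 1% O2 and 70.3 CPM at 20% O2 on day 1. Its day 10 difference was −0.78 (−0.97 to −0.60).

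**Figure D4:**
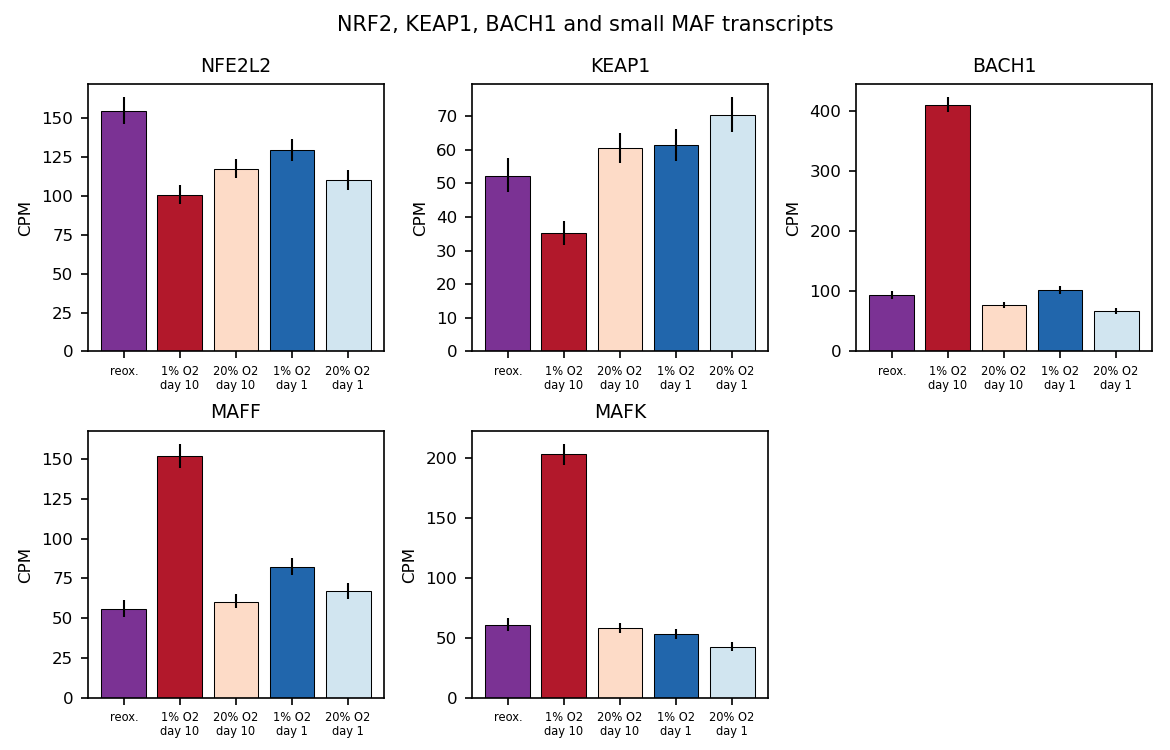
Level in CPM (linear axis from 0) of the regulators NFE2L2 and KEAP1, the repressor BACH1 and small MAF genes, 1 bar per library with its 95% Poisson interval. BACH1 has 411 CPM at 1% O2 on day 10 and at most 102 CPM elsewhere.

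BACH1, the repressor that competes with NRF2, was among the other genes of the pathway listed beside the members. BACH1 had 93.5 CPM in reoxygenated cells, 411 CPM at 1% O2 and 76.9 CPM at 20% O2 on day 10, 102 CPM at 1% O2 and 66.9 CPM at 20% O2 on day 1. It rose at 1% O2 over both days (edgeR log2 change 1.54, SE 0.34, adjusted p = 0.0138), as did TXNIP, which binds and inhibits thioredoxin (1.52, SE 0.31, edgeR adjusted p = 0.00723). Both were higher at 1% O2 on both days, and both calls were lost in edgeR with library totals (adjusted p = 0.197 for BACH1 and 0.0775 for TXNIP) and without the 1% O2 library of day 10 (adjusted p of 1.00 in each). MAFK, a partner of both NRF2 and BACH1, had a day 10 difference of 1.80 (1.68 to 1.93) and MAFF of 1.33 (1.20 to 1.46). MAFK missed the edgeR threshold (adjusted p = 0.0925). SLC7A11, the cystine importer for glutathione synthesis, had 264 CPM in reoxygenated cells, 59.1 CPM at 1% O2 and 127 CPM at 20% O2 on day 10, 123 CPM at 1% O2 and 138 CPM at 20% O2 on day 1. It was lower at 1% O2 on day 10 by −1.10 (−1.24 to −0.97). Of 89 such genes that passed the filter, 8 were higher by 2-fold on day 10 (8.99%, against 14.4% of all genes). Lower by 2-fold were 5 (5.62%, against 7.06% of all genes). The median was −0.15, against 0.02 over all genes. The others past 2-fold that the rule names were SLC6A6, a taurine transporter (1.86), GGT1 (1.56) and CHAC1 (1.43), which break down glutathione, and the prostaglandin reductase PTGR1 (1.33), all higher, and CHAC2, a relative of CHAC1 (−1.52), the carbonyl reductase CBR3 (−1.40) and FBXO30 (−1.06), all lower. In the edgeR test 2 of 87 rose and 0 fell, against 0.899% and 0.0999% of all genes. At an unadjusted p under 0.05 they were 7 and 5, against 7.36% and 4.88% of all genes. No gene was called without the day term. The calls did not hold in the fits that left out a 20% O2 library, which rest on a lone 20% O2 library.

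The comparison of days at 1% O2 shares its day 10 library with the oxygen comparison above. Between day 10 and day 1 at 1% O2, 5 members were lower by 2-fold, against 6.56% of all genes, and 4 were higher, against 14.2%. The lower ones were NQO1 (−2.57), GCLM (−1.50), TXN (−1.11), MGST1 (−1.06) and SOD1 (−1.02), of which TXN, MGST1 and SOD1 came under 2-fold with library totals. The higher ones were AKR1C1 (2.26), AKR1C3 (1.72), AKR1C2 (1.61) and ABCC3 (1.56). The AKR1C copies share sequence. Intervals were wide for AKR1C2 (0.42 to 4.09, from 16 and 4 counts) and ABCC3 (0.89 to 2.49, from 58 and 19 counts). At 20% O2, 1 member was higher on day 10, AKR1C1, against 3.06% of all genes, and 0 were lower, against 1.31%. When the day 1 oxygen difference was subtracted from that of day 10, 3 members were lower by 2-fold, NQO1 (−2.07), GCLM (−1.42) and MGST1 (−1.27), against 6.18% of all genes, and 2 were higher, AKR1C1 and AKR1C3, against 12.5%.

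After reoxygenation, of the 5 members that were lower by 2-fold at 1% O2 on day 10, NQO1, GCLM and MGST1 were above their 20% O2 level of day 10 and PIR and TALDO1 had intervals that held 0. In a comparison with 20% O2 at day 10, the longer time in culture and the earlier hypoxia cannot be told apart. Reoxygenated cells against 1% O2 at day 10 had 6 members higher by 2-fold, against 5.61% of all genes, and 1 lower, against 11.1%. The higher ones were NQO1 (3.41), GCLM (1.89), MGST1 (1.83), PIR (1.41), TXNRD1 (1.40) and TALDO1 (1.05), and AKR1C3 was lower by −2.01 (−2.63 to −1.53). Against 20% O2 at day 10, 1 member was higher, ABCC2 at 1.30 (0.67 to 2.10), against 3.4% of all genes, and 0 were lower, against 1.41%. The median of the members was 0.05, against 0.00 over all genes. Members below 2-fold with intervals above 0 included ABCC3 (0.95), NQO1 (0.83), TXNRD1 (0.58), ME1 (0.57), CAT (0.54), NFE2L2 (0.40), MGST1 (0.36) and GCLM (0.21). ABCC3 passed 2-fold with library totals (1.03). Those with intervals below 0 included PRDX4 (−0.42), SOD2 (−0.38), PGD (−0.28), PRDX2 (−0.25), SOD1 (−0.24), KEAP1 (−0.21), PRDX3 (−0.18), PRDX1 (−0.14) and PRDX6 (−0.10). In this comparison the interval lay above 0 for 11 of the 36 members, below 0 for 9 and held 0 for 16. No share over all genes was set beside these counts. TALDO1 (−0.03), AKR1C3 (0.07) and the AKR1C sum (0.30, −0.06 to 0.66) had intervals that held 0.

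**Figure D5:**
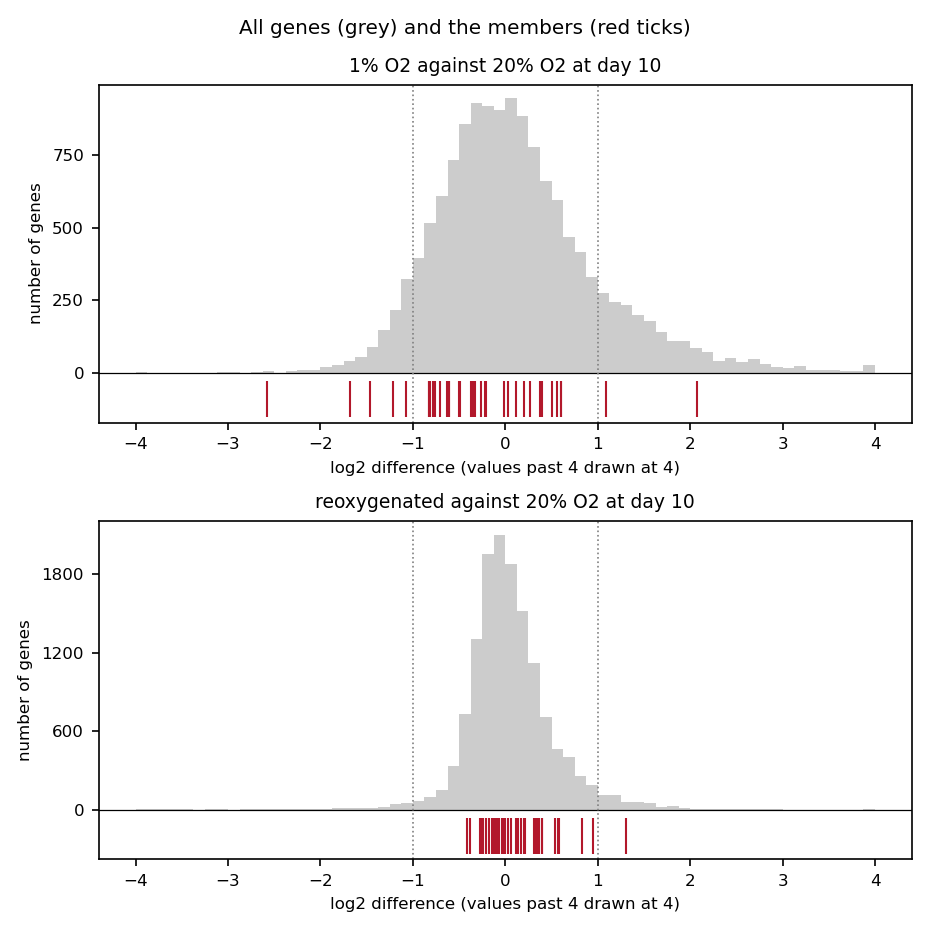
Number of genes (vertical axis) by log2 difference (horizontal axis) over all 13940 genes, in grey, with the measured members as red ticks below 0 and dotted lines at 2-fold, for 1% against 20% O2 on day 10 (upper panel) and reoxygenated cells against 20% O2 on day 10 (lower panel). The members' median is −0.36 in the upper panel, where NQO1 is 26th from the lowest gene, and 0.05 in the lower panel, where ABCC2 at 1.30 lies past 2-fold.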

How the data were processed

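Gene expression was measured by RNA sequencing in 5 libraries, 1 per condition, prepared with an mRNA kit per the labels' protocols. The tools were Bowtie2 (2.1.0), RSEM (1.2.15) and edgeR on hg38, per the submitters' processing notes; which strand setting and which annotation they used is not given in the sources used here. In the expected counts that the authors deposited, 3.58% to 4.09% of a library's values were not whole. The second deposited table holds a signal, CPM scaled with TMM factors, whose values match whole reads; its log2(value + 1) served as an alternative.

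Expected counts were rounded. The 13940 genes that reached 1 CPM in any library were scaled with TMM (edgeR 4.0.16, R 4.3.3), and log2 CPM used a prior count of 2. Intervals of a difference between 2 libraries are exact Clopper-Pearson 95% intervals (scipy 1.17.1) of the count ratio. For the day 10 minus day 1 difference they are normal 95% intervals from the 4 counts. All intervals and the limit of 3 counts for a count of 0 cover counting error only, since reads carry no molecular identifiers. The oxygen test used edgeR's quasi-likelihood fit on 4 libraries (13011 genes that reached 1 CPM in 2 of them), with Benjamini-Hochberg adjustment at 0.05. Nothing in the labels says that these libraries are separate cultures. With 1 library per oxygen level and day, the spread behind the test's p-values is how far the oxygen differences of both days disagree. That spread is shared across genes (29.8 prior degrees of freedom), is not one between replicates and may be technical in part. DESeq2 1.42.0, limma 3.58.1, other scalings, filters and size rules were alternatives.

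Members and gene lists were chosen with earlier results of these data known. Values in every library are given for members past 2-fold between oxygen levels on day 10 or after reoxygenation, members called in the test and a set of regulators and enzymes; PRDX5 and ABCC3 were added after their values were seen. Of the other pathway genes, the 12 furthest apart on day 10 are named. Coordinates and promoters are from RefSeq (GRCh38.p14), and shared words and transcript lengths from GENCODE 29.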

Additional observations from a re-analysis of the deposited data

Results flagged for a closer look

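NFE2L2, which encodes NRF2, had opposite signs in its oxygen differences. The log2 difference between 1% and 20% O2 was −0.22 on day 10 (1052 and 1440 counts) and 0.23 on day 1 (1396 and 1146 counts), and each counting interval excluded 0. Each difference rests on 1 library per condition, and the difference between the days was not tested against replicate spread. The counting interval of that difference of −0.45, a normal approximation, was −0.61 to −0.29.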

How the results depend on the processing

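With 1 library per condition, none of the counts of members has a replicate check, and at 3 counts a level of 0.245 to 0.377 CPM was the limit of detection. With library totals the all-gene median moved by 0.13 on day 10, and the share of higher among called genes became 77.7%, against 67.1% with TMM. Of the 36 members, ABCC3 and GPX1 turned sign on day 10 in some settings. A rule of 1.5-fold put 4 of the 36 members higher and 15 lower between 1% and 20% O2 on day 10 (all genes, 24.4% and 19.7%), 1 and 3 on day 1 (6.26% and 3.22%), 7 and 12 between days at 1% O2 (23.5% and 19.6%), and 4 and 1 between days at 20% O2 (8.16% and 5.26%). It put 14 higher and 5 lower in reoxygenated cells against 1% O2 (17.9% and 20.3%), 3 higher against 20% O2 (10.1%), and 5 and 11 in the day 10 minus day 1 difference (21.9% and 18.7%). With the deposited normalized values 1 member was higher on day 10. Between days at 1% O2, 2 were lower with library totals and 3 with a filter of 5 CPM; between days at 20% O2, 2 were higher with no filter; against 20% O2, 2 were higher in reoxygenated cells with library totals. In the oxygen test 0 members fell with library totals, with DESeq2 or without the day term. Leaving out each library, with no day term, gave 0 to 15 members that fell and 0 to 6 that rose; the 15 and 6 came without 1% O2 at day 1, a fit with a lone 1% O2 library that called 2197 genes as fallen (17%) and 2028 as risen (15.7%). Over all genes the main test called 117 that rose and 13 that fell; the counts were 25 and 2 with library totals, 47 and 2 with DESeq2, 202 and 22 with limma-voom, 237 and 44 with no filter and 0 and 0 without the day term. The cause of these shifts was not tested. No pairing of replicates was possible with 1 library per condition. The day enters the oxygen test as a covariate, which matches the 1% and 20% O2 libraries by day only. In the fit with no day term and no replicate block, 0 members rose and 0 fell.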

Other observations

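Iron and carbonyl genes that NRF2 is known to regulate, outside the 38, differed among themselves. HMOX1, the heme oxygenase, had 9.18 CPM in reoxygenated cells, 7.86 CPM at 1% O2 and 6.61 CPM at 20% O2 on day 10, 6.11 CPM at 1% O2 and 10.5 CPM at 20% O2 on day 1. FTL, the ferritin light chain, was lowest at 1% O2 on day 10, with an oxygen difference of −0.82 (−0.87 to −0.77) on that day and −0.07 on day 1, and FTH1, the heavy chain, differed by −0.11 and −0.07. AKR1B1, aldose reductase, was higher on day 10 than on day 1 by 2.15 at 1% O2 and by 1.37 at 20% O2, and its oxygen differences were 0.47 on day 10 and −0.31 on day 1. These genes were chosen after their values were seen, and the differences have no test.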
